A study of Saccharomyces cerevisiae with 8 samples.

Results

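The response of yeast lacking STB3 to fresh glucose was followed across all annotated genes. The 4 arrays of the stb3-null strain were used out of the 8 of the series. On 2 of them (replicates A and B) the cells had received 2% glucose and were collected 10 min later, and on the other 2 (A and B) they had been kept for 3 days in YPD, a rich medium, with nothing added. Cells of both groups carried the deletion of STB3 and the same 3 days of growth, so the added glucose is the labelled difference. The other 4 arrays held the wild type, BY4742, a haploid laboratory strain of Saccharomyces cerevisiae, under the same conditions with 2 arrays each. The labels do not say how the deletion was made or whether stb3-null is 1 clone. Whether A and B were separate cultures is not stated either, so p-values cover only the spread between arrays, which may be technical.

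Yeast that has used up its glucose stops dividing, lives on ethanol and stored carbohydrate, and makes few ribosomes. When glucose returns, signals through the glucose sensors of the plasma membrane, Ras with protein kinase A, and the TOR kinases change transcription within minutes. Genes for processing ribosomal RNA and assembling ribosomes are among those known to be induced, and many of their promoters carry the ribosomal RNA processing element, which Stb3 is known to bind. Genes for other carbon sources are repressed, through the kinase Snf1 and repressors of the Mig family.

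The replicates of stb3-null lay close together. The SD over genes of the log2 difference between A and B was 0.278 after glucose and 0.261 at 3 days in stb3-null, against 0.549 and 0.577 in wild type. Replicates A and B of stb3-null differed by a log2 value above 1 at 28 genes after glucose and at 5 genes at 3 days. STB3 itself had log2 signals of 2.50 and 2.82 after glucose and 3.30 and 2.90 at 3 days in stb3-null, against 7.62 to 9.23 on the wild-type arrays. The stb3-null signals lie below 5.80, the level under which genes were left out when the mean of all 8 arrays did not reach it. Defining genes of the mating type and the strain were looked at too. The alpha-factor gene MF(ALPHA)1 lay at 11.09 or above on the stb3-null arrays and the genes STE2, BAR1 and AGA2, specific to a cells, at 6.01 or below. The a-factor genes MFA1 and MFA2 lay above the level, at 6.99 to 7.36 and 6.55 to 6.76. The marker genes URA3, LYS2 and LEU2, deleted in BY4742, lay at 5.61 or below. HIS3, which carries a partial deletion in BY4742, had 10.43 and 10.66 after glucose against 8.33 and 8.15 at 3 days, and where its probe set lies relative to that deletion was not tested. Among the neighbours of STB3 on the chromosome, the chaperone gene CDC37 was called higher by 0.53 (adjusted p = 0.0430) and turned to -0.05 with quantile normalisation. SEC7, on the other side, was at 0.15 and did not pass (adjusted p = 0.53), and at -0.11 after quantile normalisation and -0.35 on a common trimmed mean.

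Whether most genes were called depended on the fit. The fit of all 8 arrays called 2112 genes, fewer than that of the stb3-null arrays alone, which is used here. In the latter, 3285 of 5343 genes tested (61.5%) passed at an adjusted p below 0.05 in limma. Of all genes tested, 2186 were higher (40.9%) and 1099 lower (20.6%) after glucose. For 3280 of the called genes both glucose arrays lay on the same side of both 3 days arrays. The calls were made from these same arrays, so that count is no separate support. The share over all genes was not counted. Most changes were modest: the median over all genes was 0.26, and 980 called genes had a log2 change above 1 and 370 one below -1. A stricter test, which asks whether a change exceeds 2-fold (limma's treat), called 413 genes higher (7.73%) and 131 lower (2.45%). The median SE of a change was 0.18.

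The balance of rises and falls depended on how the arrays are put on one scale, which is not given for the deposited values. Median centring put the median over all genes at 0.15, quantile normalisation at 0.04 and scaling to a common trimmed mean at -0.24. The counts of higher and lower genes were then 1950 and 1314, 1692 and 1476, and 1109 and 2179. Small changes of gene groups are therefore read against the median of 0.26. Counts of called genes in a group are read against the 40.9% higher and 20.6% lower of all genes. One array also mattered: without 3 days replicate A 673 genes were lower, and without 3 days replicate B 1445 were higher and 725 lower. Calls of single genes depended on such choices too. Among 233 called genes named here, 7 to 23 lost the call with another scaling and 53 in the fit of all 8 arrays. Treat, which asks for more than 2-fold and so drops modest changes, cost 111 their call. In all, 117 of the 233 lost the call under at least 1 of up to 18 alternatives. Those called in 13 or fewer were CDC37, ATC1, RRP17, MMT1, DPB2, TFC3, TFC1, HEF3, KAP120, URA10, SUL1, HAP1, PYC1, ICL1, MDH2, NDI1, FES1, HSP30, SSE2, CTT1, RAS1, SCH9, DOT6, RPN4, ATG33, ATG12, GLN3, DAL80, DAL5, PUT1 and AMD2.

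**Figure D1:**
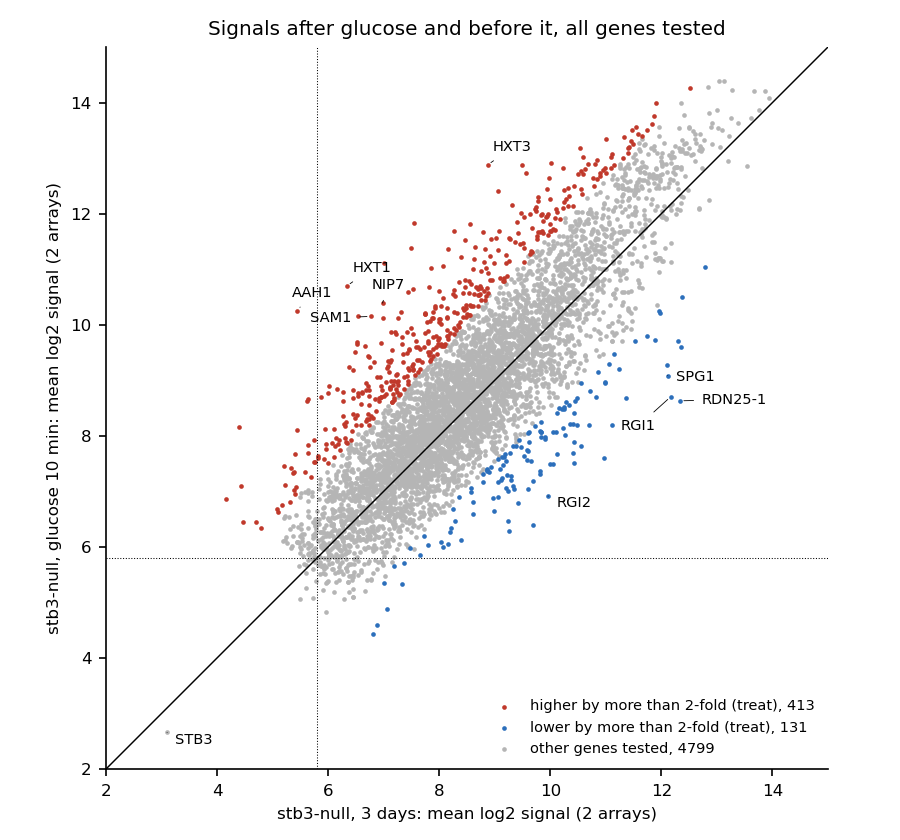
Mean log2 signal of each of the 5343 genes tested in stb3-null, glucose 10 min (vertical) against 3 days (horizontal), 2 arrays each. Red and blue points are the 413 genes higher and 131 lower by more than 2-fold, the solid line marks equal signal and the dotted lines the level of 5.80, below which STB3 lies in both groups.

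Glucose transporter and sensor genes gave some of the steepest responses. HXT1, the gene of a low-affinity glucose transporter, had log2 signals of 10.95 and 10.44 on the glucose arrays A and B, against 5.86 and 6.81 on the 3 days arrays. HXT3, another low-affinity transporter gene, had 13.08 and 12.67 after glucose, against 8.70 and 9.04 at 3 days. Both thus went up by about 4 on the log2 scale with no overlap between groups. The changes were 4.36 (SE 0.24, adjusted p = 2.5e-10), or 20.5-fold, for HXT1 and 4.01 (SE 0.23, adjusted p = 3.3e-10), or 16.1-fold, for HXT3. STD1, which encodes a regulator of the Rgt1 repressor of HXT genes, had 9.59 and 9.75 after glucose against 6.98 and 6.94 at 3 days. HXT4, for a transporter of higher affinity, rose by 2.41.

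The 2 glucose sensor genes moved apart. SNF3, the sensor for low glucose, had 7.31 and 7.44 after glucose against 8.99 and 8.72 at 3 days, a fall of 1.48, while RGT2, the sensor for high glucose, rose by 0.81. MTH1, which encodes a corepressor that works with Rgt1, fell by 0.77. HXT6 and HXT7, high-affinity transporter genes of nearly identical sequence on shared probe sets, did not pass (adjusted p = 0.42 and 0.52), with HXT6 at 12.19 and 11.96 after glucose against 12.30 and 12.28 at 3 days. Of the 16 genes of transport and sensing that were tested, 6 rose (37.5%) and 2 fell (12.5%), against 40.9% and 20.6% of all genes. The median of -0.15 says little of a list that is split this way. Leaving out an array gave 4 or 5 that rose and 1 to 3 that fell, and quantile normalisation 5 and 7. Both groups of arrays, and the split of the list, are visible in the plot of 3 gene lists by array.

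Among 28 regulators of glucose repression 5 rose (17.9%) and 9 fell (32.1%), against 40.9% and 20.6% of all genes, and 14 were not called. MIG2 and MIG3 encode repressors related to Mig1. MIG2 had 8.65 and 9.24 after glucose against 6.45 and 6.92 at 3 days, a rise of 2.26, and MIG3 reached 7.34 on both glucose arrays while its 3 days signals of 5.33 and 5.44 lay below the level. MIG1 itself was at 7.40 and 7.44 after glucose and 7.34 and 7.74 at 3 days (adjusted p = 0.54). Some of the genes that drive use of other carbon sources were lower. HAP4, the regulatory subunit of the activator of respiratory genes, was at 9.79 on both glucose arrays, against 11.80 and 11.69 at 3 days. USV1, a zinc-finger regulator gene, fell by 2.08, SIP2, a subunit gene of the Snf1 complex, by 1.28, and SNF1 itself by 0.83. CAT8 and ADR1, activator genes for gluconeogenesis and for ethanol and fatty acid use, fell by 1.06 and 1.01. HAP1, the haem-responsive activator gene, was called higher by 0.69, but its signals overlapped: 11.39 and 10.43 after glucose, 9.90 and 10.55 at 3 days. With an array left out, 2 to 5 of the list rose and 6 to 9 fell, the fewest rising without 3 days replicate A.

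Of 19 genes of Ras and protein kinase A 8 fell (42.1%) and 5 rose (26.3%), against 20.6% and 40.9% of all genes. RAS2, for a GTPase that activates adenylate cyclase, had 8.26 and 8.55 after glucose against 10.44 and 10.43 at 3 days, a fall of 2.03, while RAS1 rose by 1.03. TPK2, for a catalytic subunit of protein kinase A, fell by 1.27, its regulatory subunit gene BCY1 by 1.12 and the G-protein gene GPA2 by 1.14. PDE2, for the phosphodiesterase that breaks down cyclic AMP, rose by 1.65. For IRA2, the Ras inhibitor gene, the probe sets disagreed: the brightest of 11 rose by 0.95 and the other 10 fell by 0.38 to 1.88. By the brightest, IRA2 is counted among the 5 that rose. Of 27 genes of TOR and its effectors 7 rose (25.9%) and 5 fell (18.5%), with none beyond 2-fold. Both shares lay below the 40.9% and 20.6% of all genes. The kinase gene SCH9 rose by 0.76, and RRD2 and TIP41, whose products act on phosphatases of this pathway, fell by 1.08 and 0.83. The TOR median of 0.12 turned negative with quantile normalisation (-0.08) and a common trimmed mean (-0.38), which called 4 and 0 of the list higher and 8 and 12 lower. Leaving out an array gave 2 to 4 rising genes in the Ras list, the 2 without 3 days replicate A or B. Of the TOR list 2 to 5 rose and 2 to 5 fell, the 2 rising without 3 days replicate B and the 2 falling without 3 days replicate A.

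**Figure D2:**
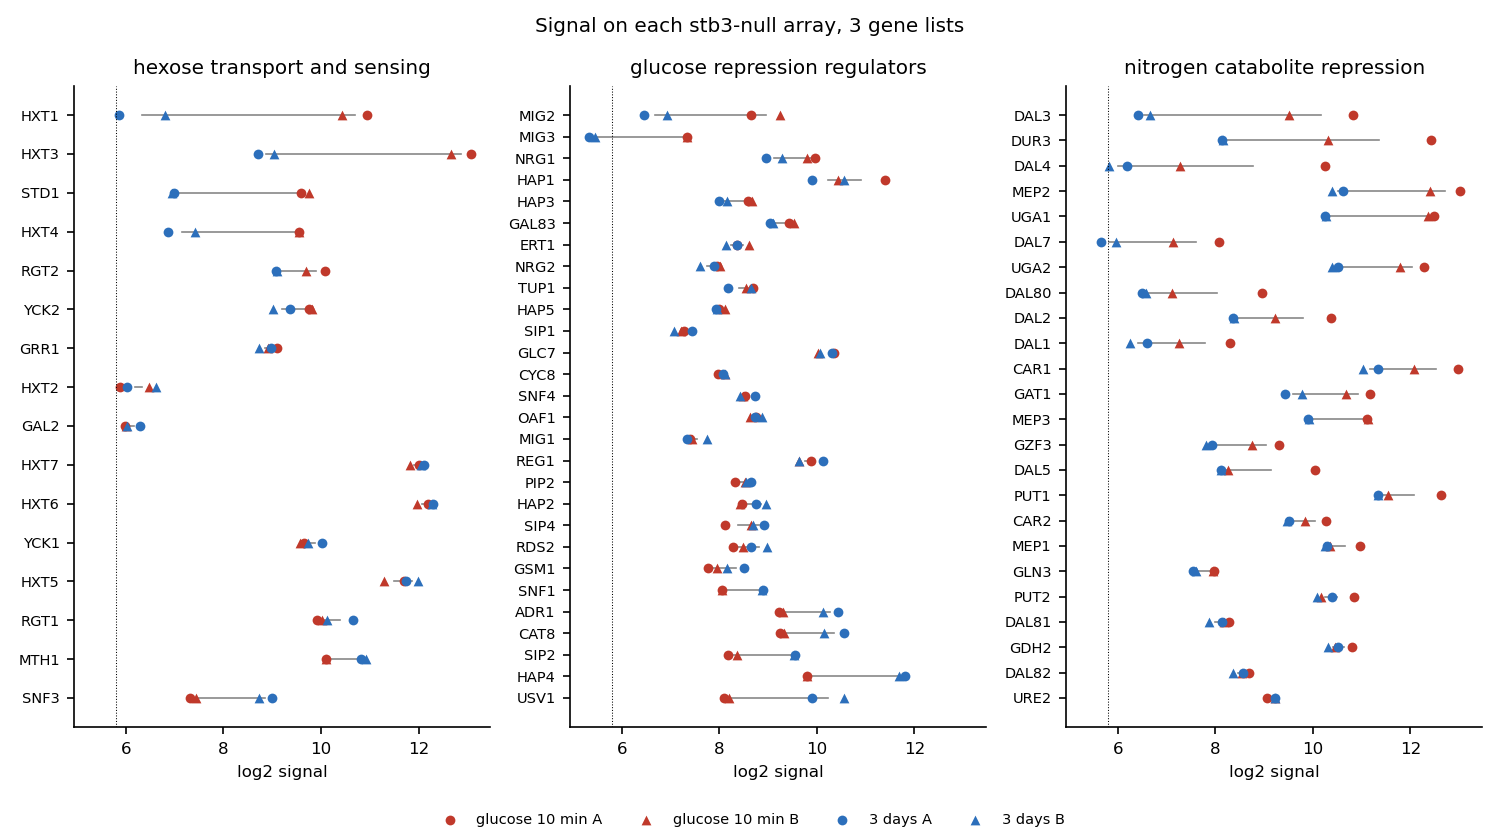
Log2 signal of every tested gene of 3 lists on each stb3-null array, glucose 10 min in red and 3 days in blue, circles for replicate A and triangles for B, with a grey line between group means and a dotted line at 5.80. HXT1 and HXT3 stand at the top of the transporters, and 22 of 24 nitrogen genes have glucose A above glucose B.

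Genes for building ribosomes rose nearly throughout. In the list of the small-subunit processome and 40S assembly, 65 of 66 genes rose and none fell, 28 of them beyond 2-fold, with a median of 1.40. In the list of 60S assembly, 73 of 77 rose and 1 fell, 46 rising beyond 2-fold, with a median of 1.87. Leaving out an array gave 53 to 65 and 69 to 74 genes that rose. The median signal of the 60S list was 9.22 and 9.67 on the glucose arrays, against 7.69 and 7.74 at 3 days.

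NIP7, a 60S biogenesis factor gene, had 10.27 and 10.51 after glucose against 6.98 on both 3 days arrays, a rise of 3.41 (SE 0.17, adjusted p = 1.1e-10), or 10.6-fold. ALB1 had 9.29 and 10.00 after glucose, against 6.56 and 6.48 at 3 days. NOG1, for a nucleolar GTPase, rose by 2.99 and CGR1 by 2.92. The one 60S gene to fall was REA1, the very large AAA ATPase that removes assembly factors from pre-60S particles, with 7.62 and 7.70 after glucose and 8.52 and 8.35 at 3 days (-0.78, adjusted p = 3.5e-04). In the small-subunit list the RNA helicase gene DHR2 had 8.64 and 9.16 after glucose against no more than 6.03 at 3 days, a rise of 2.89. PRP43, a helicase gene that serves splicing and ribosome assembly, rose by 2.82, UTP18 by 2.68 and LCP5 by 2.52.

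Of 16 proteins that form or help snoRNA particles, 13 rose and none fell. NOP58, a core protein of box C/D particles, had 12.75 and 12.71 after glucose against 9.49 and 9.62 at 3 days, by a probe set whose name marks shared sequence. NSR1, the yeast nucleolin gene, rose by 3.17, and GAR1 and NHP2, core proteins of box H/ACA particles, by 2.54 and 2.53.

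Of 36 genes for RNA polymerase I, RNA polymerase III and their factors, 26 rose and 3 fell, 11 rising beyond 2-fold (median 0.98). RPC19, a subunit that both enzymes share, had 11.73 and 11.90 after glucose against 8.59 and 8.51 at 3 days, a rise of 3.27. The polymerase I genes RPA12, RPA34 and RPA49 rose by 3.14, 2.46 and 2.36. Those that fell encode initiation factors: RRN3, which brings polymerase I to its promoter, fell by 0.82, and TFC3 and TFC1, of the polymerase III factor TFIIIC, by 0.51 and 0.46. With an array left out, TFC3 was called only without 3 days replicate B and TFC1 only without glucose replicate A.

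Regulators of ribosome genes did not move as one: 7 of 18 rose (38.9%) and 2 fell (11.1%), against 40.9% and 20.6% of all genes. The share that rose is thus near that of all genes. The median of 0.19 was -0.03 after quantile normalisation and -0.31 on a common trimmed mean. IFH1, the coactivator of ribosomal protein genes, had 10.21 and 10.32 after glucose against 8.47 and 8.41 at 3 days, a rise of 1.83. CRF1, the corepressor that takes its place, had 6.69 and 6.71 after glucose against 8.08 and 7.92 at 3 days, a fall of 1.30. TOD6, a repressor of ribosome biogenesis genes, rose by 1.11, and its paralogue DOT6 fell by 0.56. HMO1, a high mobility group protein of ribosomal DNA and ribosomal protein promoters, rose by 1.14. The activator gene SFP1 was at 8.39 and 8.25 after glucose and 8.74 and 8.63 at 3 days (-0.37, adjusted p = 0.064). Leaving out 3 days replicate A or B, or glucose replicate A, gave 5 that rose and 1 that fell.

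Every cytosolic ribosomal protein gene with a probe set of its own rose, 81 of 81, and 40 did so beyond 2-fold. The other names of the family on the list have no probe set of their own and were not tested. The median signal was 12.80 and 12.86 on the glucose arrays and 11.28 and 10.98 on the 3 days arrays. The median change of 1.68 was 0.96 with quantile normalisation, which called 76 higher. RPS28B had the largest change of the list, with 12.82 and 12.94 after glucose against 9.60 and 9.37 at 3 days (3.40, by a shared probe set), followed by RPL6B at 2.64 and RPL22A at 2.60. Of 74 mitochondrial ribosomal protein genes 28 rose (37.8%) and 8 fell (10.8%), none beyond 2-fold, against 40.9% and 20.6% of all genes. The share that rose thus lay near that of all genes, as did the median of 0.29. With a common trimmed mean that median was -0.20, with 7 genes higher and 18 lower. MRPL27 and MRPL32 rose by 1.33 and 1.28 and MRP20 fell by 0.57. Leaving out 3 days replicate A gave 17 mitochondrial genes that rose and 3 that fell, and leaving out B 18 and 0.

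Of 36 translation factor genes 32 rose and 1 fell (median 1.06). CDC33, for the cap-binding protein eIF4E, had 11.70 and 12.03 after glucose against 9.89 and 9.84 at 3 days, and the recycling factor gene RLI1 and the release factor gene SUP45 rose by 1.84 and 1.82. The pair of elongation factor 3 genes split: YEF3, used in growing cells, had 13.60 and 13.40 after glucose against 11.99 and 11.48 at 3 days, while its paralogue HEF3 had 9.72 and 9.69 against 10.55 and 10.08 (-0.61, adjusted p = 0.020). HEF3 was called in only 1 of the 4 repeats with an array left out, that without 3 days replicate B. Among 20 genes for tRNA synthetases and their cofactor Arc1, 17 rose and none fell, with 2 lower under quantile normalisation or a common trimmed mean. The lysyl enzyme gene KRS1 had the largest rise, with 11.57 and 11.77 after glucose against 8.82 and 8.75 at 3 days. Of 30 tRNA modification genes 23 rose and none fell, and the guanosine methyltransferase subunit genes TRM11 and TRM82 rose by 2.81 and 2.25.

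In the RNA exosome and the TRAMP complex that feeds it, 15 of 18 genes rose and 1 fell, against 40.9% higher among all genes. Without 3 days replicate A or glucose replicate B 10 rose, and on a common trimmed mean 8 did. The helicase gene MTR4 rose by 2.12 and the polymerase gene TRF5 by 1.88. The paralogues AIR1 and AIR2, RNA-binding subunits of TRAMP, went opposite ways, with AIR1 at 8.88 and 9.11 after glucose against 7.33 and 7.20, and AIR2 at 7.06 and 7.05 against 7.57 and 7.77 at 3 days. Nuclear transport genes rose in 13 of 24 cases (54.2%), with the Ran GTPase gene GSP1 up by 1.99, its binding protein YRB1 by 2.19 and the importin gene KAP123 by 1.81. On a common trimmed mean 9 were higher and 3 lower, with a median of 0.08. The karyopherin gene KAP120 fell by 0.48, a call that held without 3 days replicate A and was lost when any other stb3-null array was left out.

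**Figure D3:**
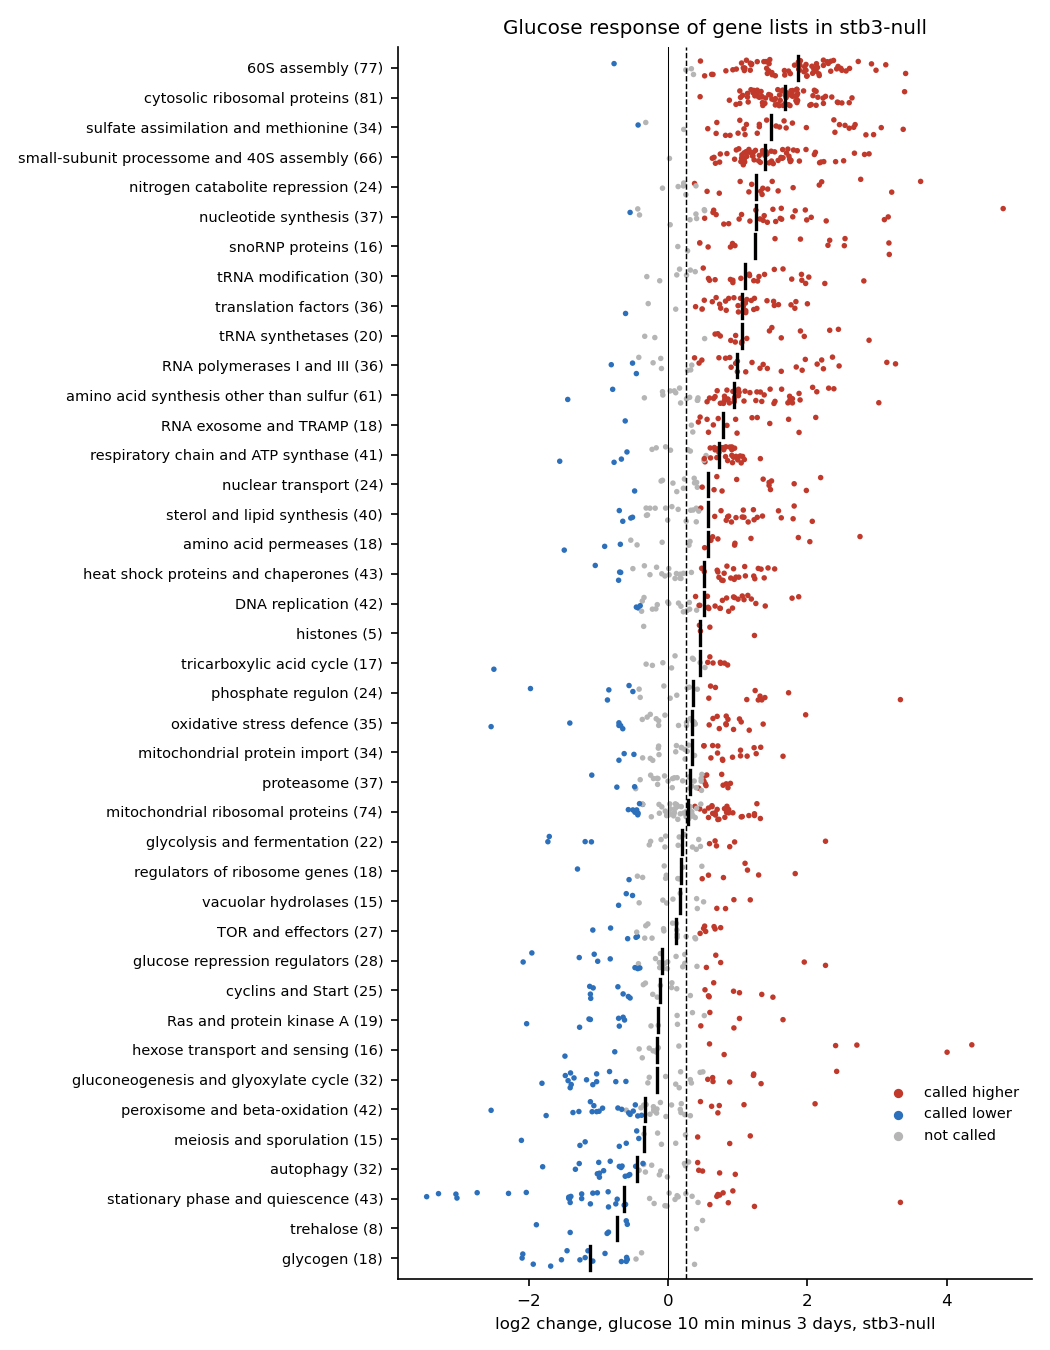
Log2 change after glucose in stb3-null of every tested member of 41 gene lists (number tested in brackets), ordered by median. Red points were called higher, blue lower and grey neither, black bars mark list medians and the dashed line the median of all genes, 0.26; the medians of respiratory chain, tricarboxylic acid cycle, oxidative defence, proteasome, glycolysis, ribosome gene regulators, vacuolar hydrolases and TOR turn negative with quantile normalisation.

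Signals of genes for the synthesis of nucleotides and amino acids were higher as well. Of 37 nucleotide genes 28 rose and 1 fell (median 1.26). URA7, for CTP synthase, had 10.41 and 10.77 after glucose against 7.47 and 7.39 at 3 days, and APT1, for adenine phosphoribosyltransferase, had 10.47 and 10.80 against 7.42 and 7.64. They rose by 3.16 and 3.11, and the GMP synthase gene GUA1 by 2.27. AAH1, for adenine deaminase, stood at 10.16 and 10.35 after glucose, and its 3 days signals of 5.24 and 5.65 lay below the level, so no fold is given. URA10, the minor orotate phosphoribosyltransferase, fell by 0.55; no other gene of the list fell, and URA10 was not called without 3 days replicate A or either glucose replicate.

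The sulfate and methionine pathway rose in 31 of 34 genes, 17 beyond 2-fold, with a median of 1.48. SAM1, for S-adenosylmethionine synthetase, had 10.16 and 10.14 after glucose against 6.75 and 6.80 at 3 days, a rise of 3.38 (SE 0.16, adjusted p = 5.6e-11). CYS3, for cystathionine gamma-lyase, had 11.53 and 11.52 against 8.59 and 8.34, and MET16, for a reductase of sulfate assimilation, rose by 2.95. MET17 was at 12.65 and 12.63 after glucose and 10.29 and 9.66 at 3 days. The one member called lower was SUL1, a sulfate permease gene whose signals of 5.06 to 5.62 all lay below the level. Other amino acid genes rose in 46 of 61 cases and 2 fell (median 0.95), with the histidine synthesis gene HIS1 up by 2.38 and the threonine aldolase gene GLY1 by 2.14. Serine synthesis split: SER2, for the last enzyme, was at 8.48 and 8.84 after glucose with 3 days signals below the level (5.63 and 5.64), and SER3, for the first, was at 7.83 and 8.06 after glucose against 9.48 and 9.29. SER3 fell by 1.44 (adjusted p = 1.6e-06) in stb3-null and was at -0.10 in wild type, a difference of -1.33 that did not pass (adjusted p = 0.66 in limma).

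Genes for using poor nitrogen sources rose, 18 of 24 with none falling. This regulon is known to be kept off by good nitrogen sources. DAL3, of allantoin breakdown, had 10.82 and 9.51 on the glucose arrays A and B against 6.42 and 6.66 at 3 days, a rise of 3.63. The urea transporter gene DUR3 had 12.42 and 10.30 against 8.14 and 8.16. The ammonium transporter gene MEP2 had 13.02 and 12.40 against 10.62 and 10.39. UGA1, for the transaminase of the GABA pathway, had 12.48 and 12.37 against 10.25 and 10.26, and GAT1, an activator of the regulon, rose by 1.33. The activator gene GLN3 moved little, at 7.97 and 7.95 after glucose against 7.55 and 7.61 (0.38, adjusted p = 0.035), and -0.12 with a common trimmed mean. URE2, the inhibitor of Gln3, was at 9.06 and 9.23 against 9.23 and 9.22 (adjusted p = 0.72).

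These same genes told the 2 glucose arrays apart. DAL4, the allantoin permease gene, had 10.25 on glucose A and 7.28 on glucose B, against 6.19 and 5.81 at 3 days, and DAL80, a repressor of the regulon, had 8.95 and 7.11 against 6.49 and 6.58. Of the 11 genes more than 1 higher on glucose A than on glucose B, 8 belong to this list: DAL1, DAL2, DAL3, DAL4, DAL5, DAL80, DUR3 and PUT1. UGA4, the GABA permease gene, and AMD2, an amidase gene, are another 2, and YLR257W is the third outside the list. Over the list, 22 of 24 genes were higher on A than on B, with a median gap of 0.62, against 0.03 at 3 days and -0.01 over all genes after glucose. Without glucose replicate A the median change of the list was 0.84 with 14 rising, and without glucose replicate B it was 1.69 with 17 rising. Only 7 were called higher when 3 days replicate A, or B, was left out. What differed between the cultures or preparations behind A and B was not tested.

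Amino acid permease genes were divided, with 10 of 18 rising (55.6%) and 3 falling (16.7%), against 40.9% and 20.6% of all genes. The list median was 0.57, and 4 were higher and 6 lower on a common trimmed mean. UGA4 had 12.26 and 10.54 after glucose against 8.41 and 8.88 at 3 days, and the arginine permease gene CAN1 had 12.41 and 11.56 against 9.93 and 9.97. GAP1, the general permease under nitrogen control, rose by 1.87. AGP2, for a plasma membrane regulator of polyamine and carnitine uptake, fell by 1.49 and the branched-chain permease gene BAP2 by 0.91. ALP1, an arginine permease gene, fell to 5.18 and 5.28 after glucose against 6.02 and 5.81 at 3 days, so that its glucose signals lay below the level. Without an array 4 to 8 rose, the fewest (4, 5 and 6) without 3 days replicate A, 3 days replicate B and glucose replicate A.

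In the phosphate regulon 11 of 24 genes rose (45.8%) and 5 fell (20.8%), shares close to the 40.9% and 20.6% of all genes. PHO84, for the high-affinity phosphate transporter, had 12.95 and 12.80 after glucose against 11.35 and 10.94 at 3 days, and the polyphosphate synthesis genes VTC1 and VTC4 rose by 1.39 and 1.35. PHO89, for the sodium-coupled phosphate transporter, had 8.05 and 8.09 after glucose against 10.08 and 10.01 at 3 days, a fall of 1.98 (SE 0.18, adjusted p = 4.7e-08). The acid phosphatase gene PHO5 fell by 0.85. GPP2, for glycerol-1-phosphatase, counted here and among stationary-phase genes, had 12.41 and 12.39 after glucose against 8.82 and 9.31 at 3 days. The list median of 0.36 was -0.13 with a common trimmed mean, which called 8 higher and 9 lower, and 2 and 3 genes fell without 3 days replicate A and B.

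Glycolytic genes as a list stayed near the median of all genes, with 6 of 22 rising and 4 falling, and a median of 0.20 that was -0.42 after quantile normalisation and -0.30 on a common trimmed mean. These called 15 and 11 lower and 1 and 2 higher. The genes of both kinases that make the allosteric activator of phosphofructokinase moved apart. PFK27, for an inducible one, had 7.54 and 7.80 after glucose with 3 days signals of 5.44 and 5.38 below the level, and PFK26, for the other, had 7.86 and 8.33 against 9.71 and 9.93. The other 3 that fell were HXK1, for a hexokinase, by 1.71, PDC6, for a pyruvate decarboxylase, by 1.19, and PYK2, for a pyruvate kinase, by 1.10. HXK2, the main hexokinase of growth on glucose, was at 10.45 and 10.25 after glucose and 10.48 and 10.29 at 3 days (adjusted p = 0.89). The repeat without 3 days replicate A had 11 rising and 5 falling, and in the other 3 repeats 2 or 3 rose and 4 fell.

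Gluconeogenesis and the glyoxylate cycle did not fall as a block. Of 32 genes 14 fell and 8 rose, with a median of -0.15. ATO2 and ATO3, genes of the ammonium and acetate transporter family, had 9.68 and 9.74, and 7.41 and 7.22, after glucose, against 11.50 and 11.54, and 8.94 and 8.64, at 3 days. The carnitine shuttle genes CRC1 and CAT2 fell by 1.44 and 1.41, the acetyl-CoA synthetase gene ACS1 by 1.08 and the lactate transporter gene JEN1 by 0.75. PCK1, for the carboxykinase that defines gluconeogenesis, went the other way, with 13.52 and 13.57 after glucose against 12.48 and 12.15 at 3 days, a rise of 1.23. VID24, whose product targets gluconeogenic enzymes for destruction when glucose returns, rose by 1.34, the alcohol dehydrogenase gene ADH2 by 1.23, the aldehyde dehydrogenase gene ALD4 by 0.89 and the malic enzyme gene MAE1 by 2.42. FBP1, for fructose-1,6-bisphosphatase, was at 10.93 and 10.76 after glucose and 11.01 and 10.46 at 3 days (adjusted p = 0.70). The remaining 3 that rose, ICL1, PYC1 and MDH2, did so by 0.64, 0.65 and 0.57 and were at -0.23, -0.19 and -0.26 with quantile normalisation. The repeat without 3 days replicate A had 9 rising and 8 falling, and in the other repeats 4 or 5 rose and 12 or 13 fell.

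Peroxisome and beta-oxidation genes fell in 18 of 42 cases (42.9%) and rose in 6 (14.3%), against 20.6% and 40.9% of all genes. Their median was -0.33. The peroxisomal catalase gene CTA1 had 7.53 and 7.47 after glucose against 10.19 and 9.89 at 3 days, a fall of 2.54. PEX18, for a coreceptor of peroxisomal import, fell by 1.75, the NADP-dependent isocitrate dehydrogenase gene IDP3 by 1.37 and POX1, for acyl-CoA oxidase, by 1.28. FAA4, for a fatty acid activating enzyme used in growth, had 10.24 and 9.96 after glucose against 8.04 and 7.94 at 3 days. FOX2 and POT1, the next enzymes of beta-oxidation, were at 10.03 and 10.39, and 9.28 and 9.66, after glucose, against 10.50 and 10.33, and 9.71 and 9.65, at 3 days, and neither passed (adjusted p = 0.42 and 0.38).

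Respiratory genes stood above the median of all genes as deposited, but not on every scale. Of 41 genes of the respiratory chain and ATP synthase 29 rose and 4 fell, none beyond 2-fold, with a median of 0.73 that was -0.05 with quantile normalisation, under which 3 rose and 9 fell. ATP17, a subunit gene of ATP synthase, had 12.07 and 11.94 after glucose against 10.77 and 10.59 at 3 days, and COX9, of cytochrome oxidase, had 12.80 and 12.69 against 11.94 and 11.45. STF2, which encodes a factor of the ATP synthase inhibitor, fell by 1.56, the external NADH dehydrogenase gene NDE2 by 0.78 and the internal one, NDI1, by 0.59. COB, a mitochondrial gene, was at 6.02 and 5.93 against 6.97 and 6.32. Without glucose replicate A or B, 11 and 8 of the list rose. In the tricarboxylic acid cycle 7 of 17 genes rose (41.2%, against 40.9% of all genes). CIT3, for a mitochondrial citrate synthase, had 7.18 and 7.21 after glucose against 9.57 and 9.82 at 3 days, a fall of 2.50. The cycle's median of 0.46 was -0.35 after quantile normalisation and -0.04 on a common trimmed mean, with none higher under either and 8 and 5 lower. As deposited 4, 2 and 1 genes rose without 3 days replicate B, glucose replicate A and glucose replicate B. Of 34 mitochondrial import genes 16 rose (47.1%) and 3 fell (8.8%), against 40.9% and 20.6% of all genes, TIM12 rising by 1.65 and SAM50 falling by 0.71. The median of 0.34 was -0.16 with a common trimmed mean, which called 8 higher and 9 lower.

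Reserve carbohydrate genes fell. Of 18 glycogen genes 15 fell and none rose, with a median of -1.12 that lay between -1.22 and -1.61 under the other 3 scalings. GLG1, for glycogenin, the primer of glycogen, had 7.19 and 7.22 after glucose against 9.51 and 9.09 at 3 days. GIP2, for a phosphatase targeting subunit, had 6.92 and 6.84 against 8.94 and 8.99, GSY1, for a glycogen synthase, 7.46 and 8.48 against 9.87 and 9.94, and the main synthase gene GSY2 fell by 1.15. Among 8 trehalose genes 6 fell and none rose. MAL11, for a transporter that takes up trehalose, fell by 1.89 and TPS2, for the phosphatase of trehalose synthesis, by 1.41. TPS1, for the synthase, fell by 0.88 and its regulatory subunit gene TSL1 by 0.86. The fit of all 8 arrays with 1 shared spread called 10 glycogen genes and 1 trehalose gene lower. With an array left out 10 to 14 glycogen and 3 to 5 trehalose genes fell, the 3 without glucose replicate A.

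Stationary-phase genes held several of the largest falls of the response. Of 43 such genes 23 fell (53.5%) and 9 rose (20.9%), against 20.6% and 40.9% of all genes (list median -0.63). RGI1, a respiratory growth gene, had 8.59 and 8.82 after glucose against 12.24 and 12.10 at 3 days, and its paralogue RGI2 had 6.99 and 6.84 against 10.02 and 9.90. They fell by 3.47 (SE 0.21, adjusted p = 5.7e-10) and 3.05 (SE 0.16, adjusted p = 1.9e-10). MRK1, for a kinase of the glycogen synthase kinase family, had 6.50 and 6.30 against 9.76 and 9.63, and SPG1, required for survival in stationary phase, had 9.33 and 8.84 against 12.11 and 12.12. XBP1, a repressor gene of starved cells, fell by 2.29. The stress kinase gene RIM15 and the reductase gene GRE2 rose, by 0.87 and 1.24, and the activator gene MSN2 by 0.72. Without glucose replicate A or B, 5 of the list rose.

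**Figure D4:**
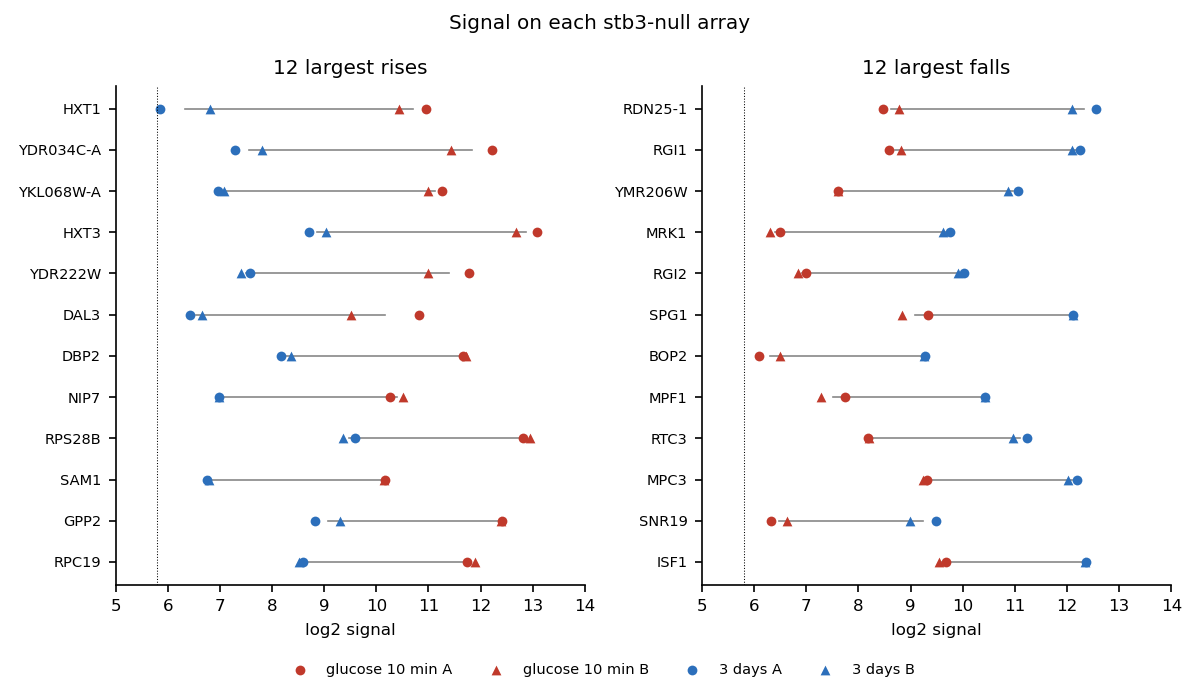
Log2 signal on each stb3-null array of the 12 largest rises and 12 largest falls among genes above the level of 5.80 in both groups, glucose 10 min in red and 3 days in blue, circles for A and triangles for B. Only called genes without overlap between groups were eligible, so the separation is part of the choice. The distance between replicates is largest for HXT1 at 3 days and DAL3 after glucose.

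The other large changes came from genes of varied function. YKL068W-A, an uncharacterised small open reading frame, had 11.25 and 10.99 after glucose against 6.96 and 7.07 at 3 days, a rise of 4.11 (SE 0.18, adjusted p = 4.1e-11). YDR222W, also uncharacterised, had 11.78 and 11.00 against 7.58 and 7.41. DBP2, for an RNA helicase, had 11.67 and 11.72 against 8.17 and 8.36. For YDR034C-A the rise of 4.28 rests on 1 of its 7 probe sets, with a shared sequence, and the other 6 lay at -0.12 to 0.75. YMR206W, uncharacterised, had 7.60 and 7.61 after glucose against 11.06 and 10.86 at 3 days. BOP2 fell by 2.97, MPF1 by 2.92 and RTC3 by 2.91. MPC3, for a subunit of the mitochondrial pyruvate carrier used in respiration, had 9.31 and 9.23 against 12.19 and 12.01, and ISF1 fell by 2.75.

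Several changes started or ended below the level and are given as signals only. AQR1, for an exporter of acids, was at 8.11 and 8.19 after glucose and 4.13 and 4.67 at 3 days. ARI1, for an aldehyde reductase, was at 8.86 and 8.39 after glucose and 5.72 and 5.52 at 3 days, and ANS1 at 6.81 and 6.90 after glucose and 3.98 and 4.34 at 3 days. ZNF1, for a regulator of respiratory growth, was at 4.04 and 4.83 after glucose and 6.85 and 6.75 at 3 days, and YPT53, for a Rab GTPase of endocytic transport, at 4.90 and 4.88 after glucose and 6.91 and 7.22 at 3 days. SDD1, YNR071C and XYL2 also ended below the level after glucose.

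Chaperone genes rose in 23 of 43 cases (53.5%) and fell in 4 (9.3%), against 40.9% and 20.6% of all genes. Those that rose include the Hsp70 gene SSA2 at 12.53 and 12.17 after glucose against 11.01 and 10.63 at 3 days, and the chaperonin gene TCP1, up by 1.44. SSA3, the stress-induced Hsp70 gene, fell by 1.05, and SSE2, HSP30 and FES1 by 0.68 to 0.71. HSP104 and HSP26, heat shock genes abundant in stationary phase, were at 12.30 on both glucose arrays, and at 13.77 and 13.66, against 12.44 and 12.34, and 13.68 and 13.55, at 3 days. Neither passed (adjusted p = 0.74 and 0.71). Without glucose replicate B 15 of the chaperone list rose, and 1 fell without either 3 days array or without glucose replicate B. The median of 0.52 was 0.01 after quantile normalisation, with 14 higher and 16 lower, and 0.02 on a common trimmed mean, with 13 and 14. In oxidative defence 14 of 35 genes rose and 6 fell, shares close to those of all genes. The median of 0.35 was -0.11 after quantile normalisation, with 6 higher and 12 lower, and -0.15 on a common trimmed mean, with 7 and 13. The methionine sulfoxide reductase gene MXR1 and the thioredoxin reductase gene TRR1 rose by 1.98 and 1.37, and the glutathione peroxidase gene GPX1 and the cytosolic catalase gene CTT1 fell by 1.41 and 0.68. Without glucose replicate A or B, 8 of that list rose.

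Autophagy genes fell in 17 of 32 cases (53.1%) and rose in 5 (15.6%), against 20.6% and 40.9% of all genes, with a median of -0.44. ATG39, for a receptor of nuclear autophagy, had 8.74 and 8.63 after glucose against 10.65 and 10.32 at 3 days, ATG3, for the conjugating enzyme of Atg8, had 8.03 and 8.05 against 9.35 and 9.39, and ATG17, a scaffold gene, fell by 1.02. ATG27 and ATG33 rose by 0.97 and 0.74. Of the list 10 fell when 3 days replicate A was left out and 9 when B was. Of 37 proteasome genes 11 rose (29.7%) and 3 fell (8.1%), none beyond 2-fold, against 40.9% and 20.6% of all genes. The median of 0.31 was -0.13 after quantile normalisation, with 1 higher and 11 lower, and -0.19 on a common trimmed mean, with 0 and 15. RPN4, the activator of proteasome genes, fell by 0.74 and RPN14, an assembly chaperone gene, by 1.10. Between 2 and 6 proteasome genes rose when any one of the 4 arrays was left out. Among 15 vacuolar hydrolases and inhibitors 4 rose (26.7%) and 3 fell (20.0%), against 40.9% and 20.6% of all genes. Their median of 0.175 was -0.26 after quantile normalisation, with 1 higher and 5 lower, and -0.32 on a common trimmed mean, with 2 and 5. The protease gene PEP4 rose by 1.18 and the vacuolar mannosidase gene AMS1 fell by 0.71.

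Of 40 sterol and lipid genes 21 rose (52.5%) and 4 fell (10.0%), against 40.9% and 20.6% of all genes. The fatty acid elongase gene ELO3 was up by 2.07, the demethylase gene ERG11 by 1.81 and ERG24 down by 0.70. On a common trimmed mean 14 were higher and 12 lower, with a median of 0.07, and 1 or 2 fell with an array left out. Replication genes rose in 24 of 42 cases (57.1%, against 40.9% of all genes) and fell in 3. POL30, for the sliding clamp, had 9.06 and 9.12 after glucose against 7.38 and 7.05 at 3 days, and the initiator gene CDC6 rose by 1.40. Without 3 days replicate B 14 of them rose, and no more than 1 fell without any one array. A common trimmed mean gave 11 higher and 11 lower, with a median of 0.01. Of 25 cyclins and Start regulators 8 rose and 8 fell (32.0% each, against 40.9% and 20.6% of all genes). The G1 cyclin genes split, with PCL1 up by 1.51 and CLN2 and CLN1 down by 1.12 and 0.72, the S-phase cyclin gene CLB5 rose by 0.94, and SIC1, for the inhibitor of its kinase, fell by 1.11. CLN3, the cyclin gene that starts the cycle, was at 8.43 and 8.48 after glucose against 9.08 and 8.97 at 3 days. With an array left out 4 to 9 of this list rose and 5 to 8 fell, and a common trimmed mean gave 4 and 15. Of 5 histone genes tested 4 rose, led by HTB1 at 1.24, with a median of 0.47 that was -0.03 with a common trimmed mean, and 1 to 3 rose with an array left out. IME1, the activator of meiosis, had 7.66 and 7.42 after glucose against 9.81 and 9.48 at 3 days. Against 20.6% and 40.9% of all genes, 7 of 15 meiosis genes fell (46.7%) and 3 rose (20.0%). Of these 4 fell when 3 days replicate A was left out and 3 when B was.

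Noncoding RNAs stood opposite to the protein genes of ribosome assembly. All 4 tested probe sets for ribosomal RNA and all 4 for spliceosomal RNAs were lower after glucose, as were 29 of 41 snoRNAs and 45 of 78 tRNAs, against 19.4% of protein-coding genes. The U1 RNA gene SNR19 had 6.32 and 6.63 after glucose against 9.48 and 8.99 at 3 days, and SNR14, the U4 RNA, had 8.69 and 8.67 against 11.68 and 11.04. The U5 and U6 genes SNR7-L and SNR6 fell by 2.14 and 1.46. SNR17A, of the U3 snoRNA that guides early processing of ribosomal RNA, had 7.25 and 7.09 after glucose against 8.88 and 8.68 at 3 days. SNR68 was the only snoRNA to rise, by 1.40. RPR1, the RNA of RNase P, fell by 1.36 and the telomerase RNA TLC1 by 0.63. RDN25-1, of the large ribosomal RNA, had 8.48 and 8.78 after glucose against 12.56 and 12.10 at 3 days by one shared probe set (-3.70), and by another 5.75 and 5.74 against 6.41 and 6.35. These groups were looked at after their values had been seen. Quantile normalisation gave 30 lower snoRNAs and 49 lower tRNAs, and a common trimmed mean 37 and 68. All 4 ribosomal and 76 of 78 tRNA probe sets carry a suffix that marks shared sequence. Whether the amounts of these RNAs in the cells fell was not tested.

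**Figure D5:**
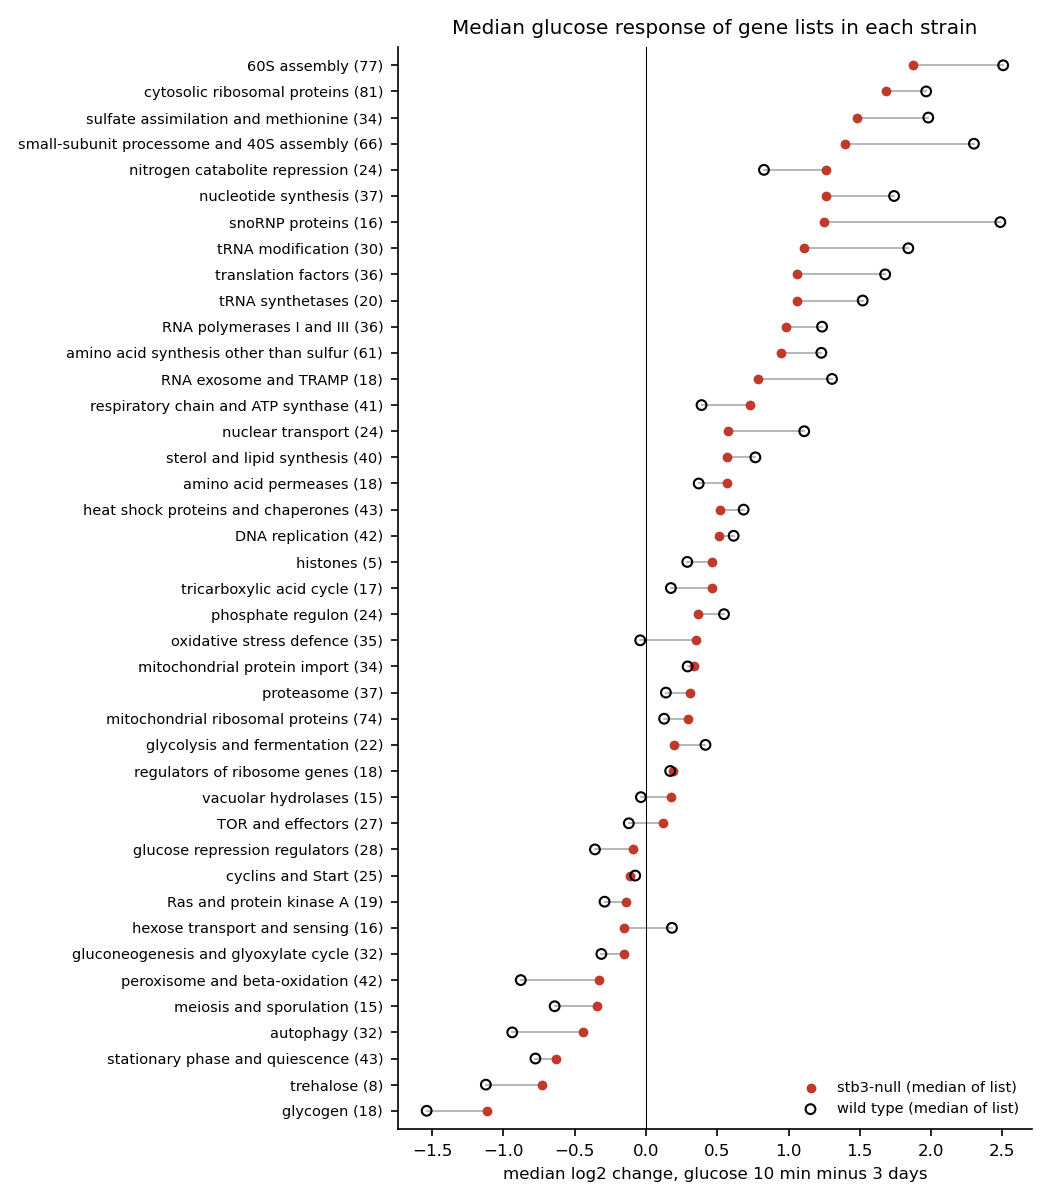
Median log2 change after glucose of the same 41 gene lists, stb3-null as filled red points and wild type as open circles, 2 arrays a group. Ribosome assembly lists lie lower in stb3-null, at 1.40 against 2.30 and 1.87 against 2.51. So do translation factors, at 1.06 against 1.68, while glycogen genes fell less, at -1.12 against -1.54. No single gene passed the test of the difference between strains.

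Set beside the response of wild type, that of stb3-null differed at no single gene that passed. The difference of the responses, tested as an interaction over all 8 arrays, called 0 of 5343 genes (0%) in limma, with 369 at an unadjusted p below 0.05. In 336 of those 369 the change was the smaller in stb3-null. They were picked by that same difference, and the share of smaller changes over all genes was not counted. So 336 does not describe the response of all genes. Wild-type replicates, which lay further apart, enter the interaction test. Without wild type, 3 days replicate A, 5 genes passed, and without wild type, glucose replicate A, 1 did; leaving out any other array gave 0. The 5 genes of smallest p were ATC1, NOP14, DFP3, UTP15 and NOP1. ATC1, a gene linked to cation homeostasis, had 8.23 and 8.36 after glucose against 7.77 and 7.92 at 3 days in stb3-null, a change of 0.45 that was -0.05 with a common trimmed mean. In wild type it rose by 2.48, and the difference of -2.03 had the smallest adjusted p (0.086).

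The other 4 of these 5 include 3 ribosome assembly genes. NOP14, of the small-subunit processome, changed by 0.64 in stb3-null against 2.18 in wild type, UTP15 by 1.74 against 3.21 and NOP1, the fibrillarin gene, by 2.30 against 3.71. DFP3, of the DUP gene family, was at 0.35 in stb3-null (adjusted p = 0.055, and -0.15 with a common trimmed mean) against -1.18 in wild type. The next 5 were RRP17, RSA4 and UTP8 of ribosome assembly, the mitochondrial metal transporter gene MMT1 and the DNA polymerase subunit gene DPB2, each with the smaller change in stb3-null. In the small-subunit list 62 of 66 genes had the smaller response in stb3-null, 38 of them at an unadjusted p below 0.05, with a median difference of -0.87. In the 60S list 75 of 77 differences were below 0, 33 at that p, with a median of -0.72. Cytosolic ribosomal proteins differed by a median of -0.35 with 5 of 81 at that p. The median difference over all genes was 0.02, with 2581 of 5343 below 0. Smaller changes in stb3-null were not particular to ribosome assembly. Median differences were -0.57 for translation factors and -0.55 for tRNA synthetases, and 0.52 for glycogen genes, which fell less than in wild type. Genes called higher beyond 2-fold in stb3-null had a median change of 1.92 there against 2.43 in wild type. Those called lower had -1.90 against -2.245. Nitrogen genes differed the other way from the ribosome lists, with 5 of 24 differences below 0 and a median difference of 0.24. None of them had an unadjusted p below 0.05. That gap rests on glucose replicate A: the median change of the list in stb3-null was 0.84 without it, against 0.83 in wild type.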

How the data were processed

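RNA of all 8 samples was hybridised to Affymetrix yeast expression arrays. The authors deposited 1 log2 signal per probe set and array (9275 probe sets), per the file headers and their values; MAS5 is named in the submitters' processing notes, and the scaling between arrays is not stated in the labels or headers. Arrays give no counts, so their number limits the precision. The highest mean antilog probe set stood for each gene, and genes whose mean antilog signal over 8 arrays reached 10% of the trimmed mean (log2 5.80) were tested, 5343 of 5656. Of the probe sets 6504 list 1 gene, 328 several and 2443 none. limma 3.58.1 in R 4.3.3 was fitted to the 4 stb3-null arrays alone with a mean-dependent prior, and p-values were adjusted by Benjamini-Hochberg over all genes tested. With 2 arrays against 2, an exact permutation test cannot go below p = 0.333. The difference between strains was an interaction in all 8 arrays. The scripts were tested on simulated data. Genes were named from a rule: the 12 largest changes in each direction, 5 with a group below the level, up to 4 called members per list and direction, every called member against its list's median, the 5 smallest p and the 10 smallest p of the strain difference. The 12 and the 5 were taken among called genes with both glucose arrays on the same side of both 3 days arrays. Not all genes the rule gives are printed, and some (such as HXT6, HXK2 and FBP1) were added for their role after their values were seen. The members and lists were chosen with earlier results of these data known. The alternatives tried were other scalings, filters, probe set choices, samples and a replicate block. Whether a replicate letter marks anything shared between groups is not stated. The A minus B differences of both stb3-null groups correlated at 0.129, which does not settle it. Promoter sequences were not analysed here.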

Additional observations from a re-analysis of the deposited data

Results flagged for a closer look

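Among the 248 genes named here, DFP3, ATG12 and AMD2 had log2 changes of opposite sign in the 2 strains, in all pairings of arrays. The other genes tested were not searched for this. None of these differences passed the test over all genes. For DFP3, of the DUP gene family, the difference of the responses, stb3-null minus wild type, was 1.53, and its change in stb3-null was not called (adjusted p = 0.055). For ATG12, an autophagy gene, it was 0.795, with log2 signals of 6.31 and 6.24 after glucose against 5.67 and 6.03 at 3 days in stb3-null. On a common trimmed mean the stb3-null changes of DFP3 and ATG12 were -0.15 and -0.071, so that the opposite signs depend on the scaling. For AMD2, an amidase gene that also lay further apart between both stb3-null glucose arrays (10.03 and 8.39), it was 1.555. Of 2443 probe sets for which no gene is listed, 977 lay above the level, and 40.02% of these were called after glucose in stb3-null, against 61.5% of the genes tested.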

How the results depend on the processing

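The counts of 2186 higher and 1099 lower genes kept within 1.5 times under most alternatives. With a common trimmed mean they were 1109 and 2179. A filter at 40% left 718 lower, the fit of all 8 arrays with 1 shared spread 620 lower, and limma treat 413 higher and 131 lower. With 1 array left out, 1445 to 1844 were higher and 673 to 908 lower, and 0 to 5 genes passed in the difference of the responses. With the replicate block 2075 were higher and 997 lower. What the letters share between groups is not stated. Of 233 called genes named in the text, 116 were called under every alternative and 117 lost the call under at least 1: 111 with limma treat, 53 in the fit of all 8 arrays, 26 to 38 with 1 stb3-null array left out, 23 with a common trimmed mean and 15 with quantile normalisation. Single genes turned over with scaling, and the cause was not tested. With a common trimmed mean SEC7 was at -0.35, ATC1 at -0.046, DFP3 at -0.15, DPB2 at -0.10, GLN3 at -0.12, ATG12 at -0.071, FBP1 at -0.39 and HSP26 at -0.40. With quantile normalisation CDC37 was at -0.054, SEC7 at -0.11, PYC1 at -0.19, ICL1 at -0.23, MDH2 at -0.26, PUT1 at -0.014, YLR257W at -0.051, FBP1 at -0.44 and HSP26 at -0.54. Median centring put HSP26 at -0.005. IRA2 was at -1.02 as the mean of its probe sets. With 1 array left out, genes that were not called ranged across 0: MIG1 from -0.32 to 0.08, URE2 from -0.165 to 0.005, YLR257W from -0.25 to 1.27, HXK2 from -0.135 to 0.065 and FBP1 from -0.165 to 0.385. With 2 arrays a group, changes near the median SE of 0.18 are not resolved.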
